A study of Homo sapiens with 4 samples.

Results

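The genes examined here carry fatty acids into the cell and through it. They are CD36, SLC27A1, SLC27A3, SLC27A4, FABP3, FABP5 and FABP7, and every region that the authors' deposited table assigns to one of them was taken. These 7 genes, of 17301 gene symbols in the table, hold 45 of its 91107 distinct regions. The study measured acetylation of lysine 27 on histone H3 (H3K27ac), a mark of active promoters and enhancers, in A375 cells, a human melanoma line in long use, with ChIP-seq (immunoprecipitation of chromatin followed by sequencing). In 1 group of 2 libraries the cells had received 1 mM octanoate, a medium-chain fatty acid, for 48 h. In the other group of 2 libraries the cells had received isopropanol, the vehicle, for 48 h. All 4 libraries came from this line grown in DMEM with serum, and whether the 2 libraries of a group came from separate cultures was not stated. Both groups share the line's genotype, so the values describe 1 line.

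CD36 is a membrane glycoprotein that binds long-chain fatty acids and oxidised lipoproteins at the cell surface. The SLC27A genes encode fatty acid transport proteins, membrane proteins of which several also join fatty acids to coenzyme A. The FABP genes encode small cytosolic proteins that bind fatty acids and carry them to membranes, mitochondria or the nucleus, where they can pass ligands to PPAR receptors. Octanoate is short enough to cross membranes without these carriers to a large extent, whereas longer fatty acids are the usual cargo.

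The data are the authors' deposited table of 1 comparison. It gives for each region a mean normalised level over all libraries, a log2 fold change with its standard error, an unadjusted p-value, an adjusted p-value, the assigned gene and the distance to that gene's start. A level is a normalised read count, and levels of different genes are compared below only per kilobase (kb) of region. The numerator of the fold change is not named, so fold changes are given with their deposited sign. Whether a positive one stands for more or less H3K27ac with octanoate is not said. No value per library is in the table, so depth is unknown and overlap between the groups cannot be shown. The error of each value is its deposited standard error. The table gives an adjusted p-value to 36436 regions, none with a mean level under 18.4, and these are called the tested regions below. A region was called when that value was under 0.05. Calls numbered 608 in the authors' deposited table, which is 1.67%, and 601 of them were positive. Most fold changes were positive, with a median of 0.32 over the tested regions in the authors' deposited table, so each value was also read against that median. Markers of the melanocyte lineage had a region over the start for 6 of 9 listed genes in the authors' deposited table, SOX10, MITF and PMEL among them. MLANA, TYR and DCT had none, and of 9 markers of other cell types 1, EPCAM, had one. This count covers starts only. Away from starts, markers of other cell types also had regions, such as 23 at PTPRC and 27 at CDH5, against 2 at MLANA, 3 at TYR and 2 at DCT.

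The DNA before the starts differs between these genes, and the sequences are shown because H3K27ac over a start marks the promoter that they contain. RefSeq's promoter table (GRCh38.p14) holds windows for 6 of the 7 genes, all but FABP5, of which the 250 bases before the start are printed 5′ to 3′ on the gene's strand. Capitals mark GC boxes, the letters GGGCGG read on either strand, which the factor SP1 is known to bind.
SLC27A1 (chr19:17470274-17470523, plus strand): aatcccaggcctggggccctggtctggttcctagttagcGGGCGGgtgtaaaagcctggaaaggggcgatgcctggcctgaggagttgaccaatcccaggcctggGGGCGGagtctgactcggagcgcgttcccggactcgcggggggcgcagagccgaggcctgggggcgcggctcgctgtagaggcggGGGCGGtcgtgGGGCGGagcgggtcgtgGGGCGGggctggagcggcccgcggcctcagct
SLC27A3 (chr1:153775157-153775406, plus strand): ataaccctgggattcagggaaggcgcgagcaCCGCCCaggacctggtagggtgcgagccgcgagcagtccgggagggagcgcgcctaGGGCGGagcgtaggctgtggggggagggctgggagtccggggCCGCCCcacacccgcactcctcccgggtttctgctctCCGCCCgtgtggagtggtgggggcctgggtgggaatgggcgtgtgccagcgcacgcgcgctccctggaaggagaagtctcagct
SLC27A4 (chr9:128340277-128340526, plus strand): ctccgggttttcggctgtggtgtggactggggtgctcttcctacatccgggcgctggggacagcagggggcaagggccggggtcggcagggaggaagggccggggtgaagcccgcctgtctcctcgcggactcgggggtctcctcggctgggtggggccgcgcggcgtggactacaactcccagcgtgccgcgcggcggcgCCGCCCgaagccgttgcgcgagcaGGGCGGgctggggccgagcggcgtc
FABP3 (chr1:31373077-31373326, minus strand): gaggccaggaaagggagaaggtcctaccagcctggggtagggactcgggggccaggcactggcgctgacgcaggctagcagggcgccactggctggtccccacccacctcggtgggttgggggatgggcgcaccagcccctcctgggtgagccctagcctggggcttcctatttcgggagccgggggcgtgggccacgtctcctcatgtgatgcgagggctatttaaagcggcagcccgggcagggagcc
FABP7 (chr6:122779466-122779715, plus strand): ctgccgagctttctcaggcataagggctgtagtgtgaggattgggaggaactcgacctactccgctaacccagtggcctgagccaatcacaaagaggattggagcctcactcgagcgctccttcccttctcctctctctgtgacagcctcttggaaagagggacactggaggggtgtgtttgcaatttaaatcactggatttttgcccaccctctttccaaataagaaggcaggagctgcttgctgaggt
CD36 (chr7:80623842-80624091, plus strand): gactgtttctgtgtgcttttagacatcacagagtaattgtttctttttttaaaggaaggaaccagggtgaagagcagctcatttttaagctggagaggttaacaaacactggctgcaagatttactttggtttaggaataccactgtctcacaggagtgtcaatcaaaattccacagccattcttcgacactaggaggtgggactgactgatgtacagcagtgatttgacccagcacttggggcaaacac
The promoters of the transport protein genes held more CpG dinucleotides than the median promoter. Their 300-base window, which adds the 50 bases after the start, held 38 at SLC27A4, 31 at SLC27A1 and 26 at SLC27A3. The median was 14 over 35116 RefSeq windows, and the 3 counts were at percentiles 90.1, 79.3 and 69.9 of these. GC boxes numbered 5 at SLC27A1, 4 at SLC27A3 and 2 at SLC27A4. A window with at least 1 GC box made up 45.0% of all windows, and windows with at least 4 made up 9.06%. FABP3 had 17 CpG dinucleotides and no GC box. FABP7 had 6 CpG dinucleotides and no GC box. CD36 has 6 RefSeq starts, and its windows had from 1 to 3 CpG dinucleotides, a GC content from 35.0% to 43.7% and no GC box. Of these 6 CD36 windows, 2 held the letters TATAAA on either strand, which 11.5% of all windows held. The window of the CD36 start printed above held none. AGGTCA, the half-site of many nuclear receptors, was searched on both strands and was in none of the windows of these genes, against 13.8% of all windows. Its direct repeat with 1 base between, the element of PPAR with RXR, contains that half-site, and 0.0228% of all windows held it. CACGTG, the E-box, was in none of these windows either, against 7.26% of all windows. A match or its lack describes the letters of these windows and says nothing of binding.

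Of the 45 regions, 1 was called in the authors' deposited table, and it lies near FABP3, the heart-type binding protein gene. Tested regions numbered 21 of the 45, so that call is 1 of 21, against 1.67% of all tested regions. Filtering was by mean level, and the remaining 24 regions of these genes were untested. Of the 45, 17 overlap the RefSeq gene to which they are assigned and 28 do not. Positive fold changes numbered 34 and negative ones 11 in the authors' deposited table. The positive share was 75.6%, near the 73.7% of all distinct regions. The median log2 fold change was 0.39 in the authors' deposited table, against 0.28 over all distinct regions. Unadjusted p-values were under 0.05 for 10 of the 45 regions in the authors' deposited table, against 8.99% of all distinct regions, and the 10 were all positive, against 8.68% of all distinct regions. Of these 10, 6 were assigned to CD36 and 1 each to FABP3, FABP5, SLC27A1 and SLC27A4. With so few genes, and with regions of 1 gene lying side by side on 1 chromosome, these counts describe the 7 genes and are not independent observations. The plot of all 45 fold changes shows that most of the spread below 0 comes from regions of low level at CD36 and FABP5, where the standard errors are wide.

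**Figure D1:**
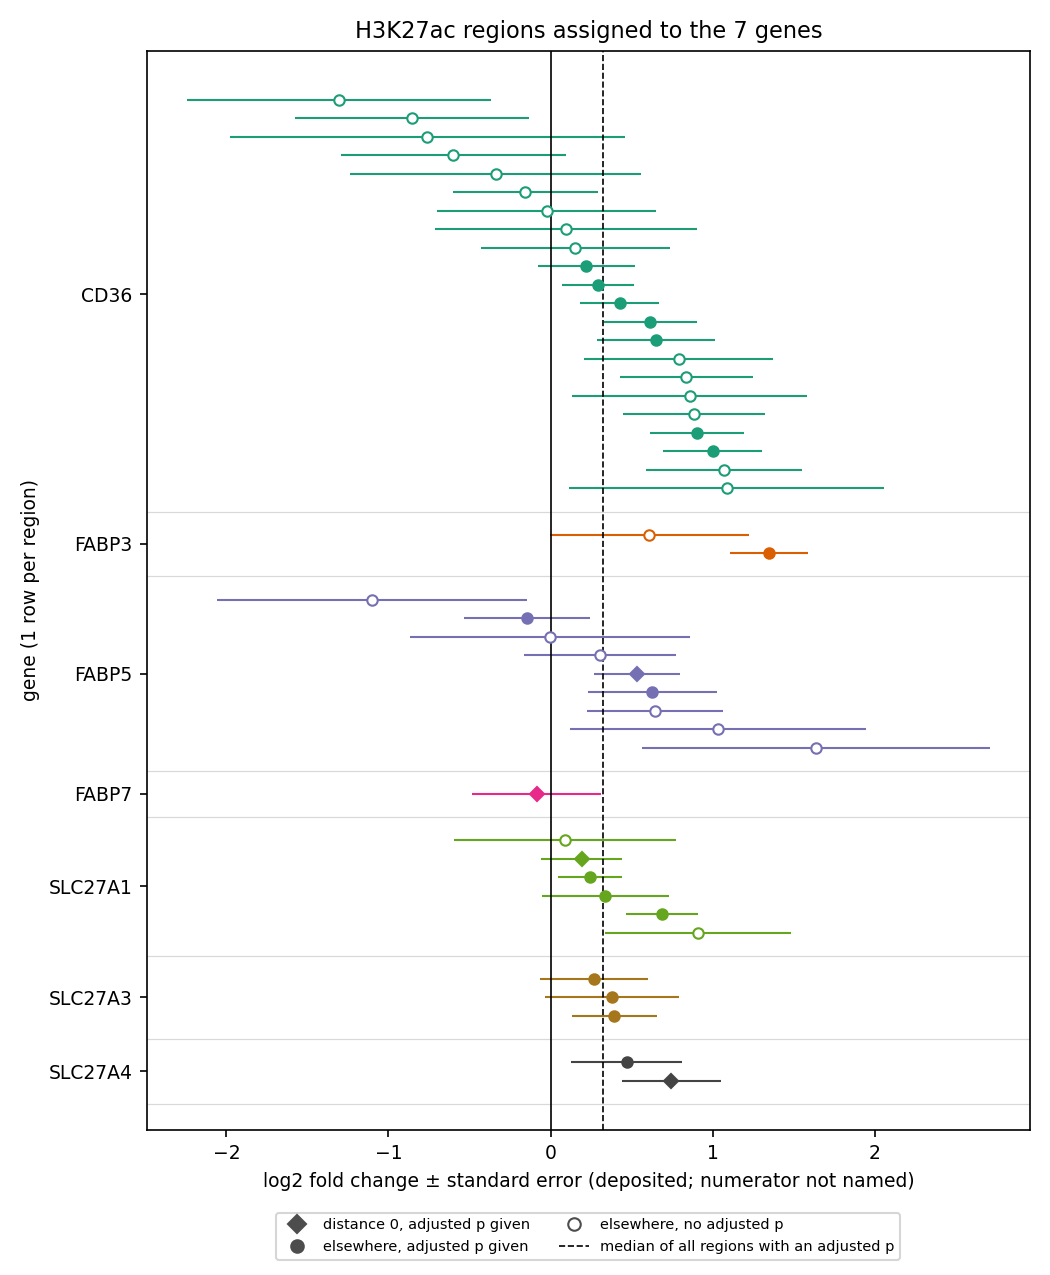
Deposited log2 fold change (horizontal axis) with its standard error (bars) for each of the 45 regions, 1 row per region, sorted within each gene; diamonds are regions over the gene's start, circles are regions elsewhere, and open symbols have no adjusted p-value. The dashed line is the median of all tested regions (0.32), and the FABP3 region at 1.35 is the only one of the 45 that was called.

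FABP3 encodes the heart-type fatty acid binding protein, which is abundant in heart and skeletal muscle. No region covers its start (chr1:31373076 in both the table and RefSeq, minus strand), whose upstream bases are printed above. The called region is chr1:31379444-31384806, 5362 bases wide, and begins 6368 bases upstream of that start. Part of it overlaps a long noncoding RNA gene of RefSeq, LOC105378623. Its mean level was 84.8, or 15.8 per kb, and its log2 fold change was 1.35 ± 0.24 (standard error) in the authors' deposited table, a ratio of 2.55 with a 95% interval from 1.83 to 3.54. In the authors' deposited table the unadjusted p = 2.47e-08 is the 8th smallest of 36436, with adjusted p = 0.000113 (DESeq2). By fold change it was the 59th of the 608 called regions in the authors' deposited table, so its rank by p-value also reflects its level and standard error. Among tested regions away from starts, its fold change was at percentile 99.8 in the authors' deposited table. When the median of 0.32 was subtracted from every fold change and the Wald test was repeated with the deposited standard errors, 45 regions passed, which is 0.124%, and this region was among them at 1.03 with adjusted p = 0.0310 (Benjamini-Hochberg over 36436 regions).

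A second FABP3 region, chr1:31390178-31390662, begins 17102 bases upstream, and in the authors' deposited table it had a mean level of 7.86 and a log2 fold change of 0.61 ± 0.62 (standard error) and was untested. The other regions within 60 kb of the FABP3 start were read after their values were seen, and belong to SERINC2 and ZCCHC17. In the authors' deposited table the 3 tested SERINC2 regions had log2 fold changes of 0.53 ± 0.24, 0.71 ± 0.24 and 0.76 ± 0.24 (standard error), with adjusted p-values of 0.219, 0.0892 and 0.0600. A ZCCHC17 region on the other side, 51.4 kb from the called region, stood at 0.87 ± 0.37 (standard error) in the authors' deposited table, with adjusted p = 0.195. These 4 are positive and above the overall median of 0.32, and none was called. The other 4 regions within 60 kb of the FABP3 start were untested. They were SERINC2 regions at 0.28 and 0.64, and ZCCHC17 regions at -0.07 and -0.88, on the log2 scale in the authors' deposited table. The difference between the FABP3 region and these neighbours was not tested.

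**Figure D2:**
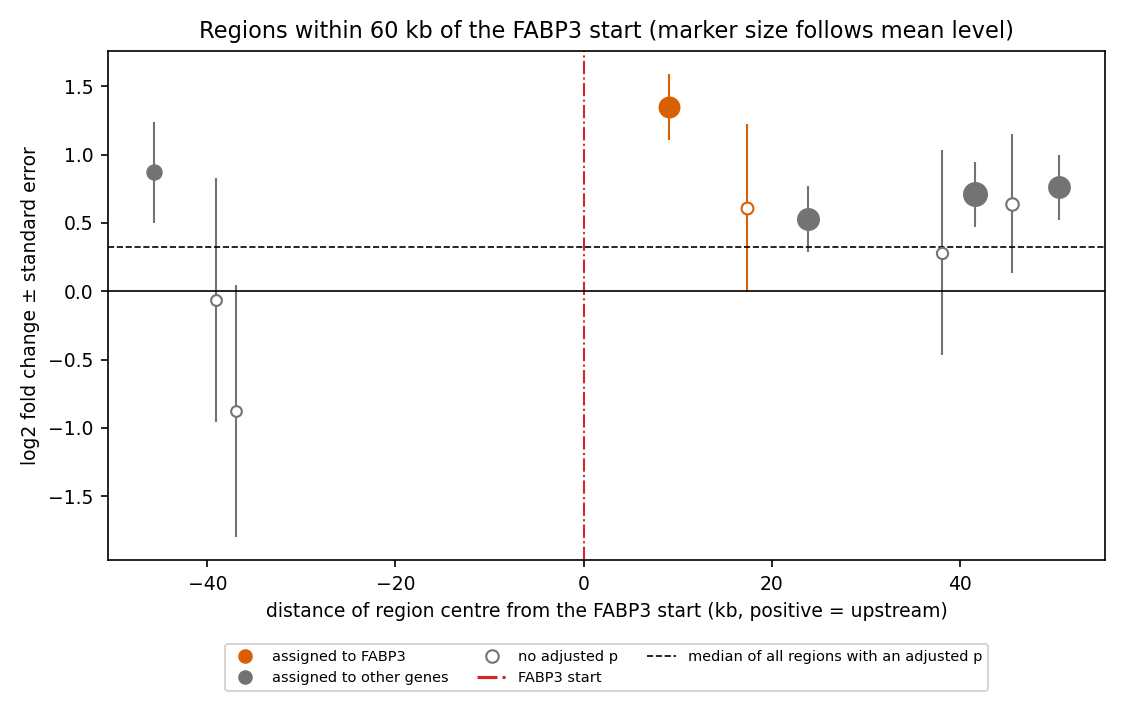
Deposited log2 fold change with its standard error (vertical axis) of regions around the FABP3 start, by the distance of the region's centre from that start in kb, with positive values upstream; orange marks regions assigned to FABP3, grey other genes, open symbols regions with no adjusted p-value, and marker size follows mean level. The called region stands at 1.35, above 0.87 for the highest of the regions of other genes.

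CD36 had the most regions, 22, spread over 383.3 kb of chromosome 7, and none was called. Its regions were split by the RefSeq gene, which was not among the planned results. Inside the gene 7 of 8 were positive, and before it 8 of 14, against 73.7% of all distinct regions. Above the overall median of 0.32 were 7 of the 8 and 4 of the 14. That median is of tested regions, and only 3 of the 8 and 4 of the 14 were tested. The share of all distinct regions above it was not computed. No region is at distance 0 in the table. The distances point to a start near chr7:80369574, which is 232.6 kb before the first RefSeq start at chr7:80602207, so regions were assigned to CD36 from a start that RefSeq does not list. The sets inside and before the gene follow RefSeq and would differ with that start. Of the 14 regions before the RefSeq gene, 6 overlap GNAT3, a gene for a G protein subunit of taste cells that lies between that start and the RefSeq one. The table assigns these 6 to CD36 as well.

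Inside the gene, chr7:80621707-80624332 covers the RefSeq start at chr7:80624092, whose upstream bases are printed above. This region had a mean level of 35.2 and a log2 fold change of 1.00 ± 0.30 (standard error) in the authors' deposited table, a ratio of 2.00. Its adjusted p of 0.0546 in the authors' deposited table lies just outside the threshold, and after subtraction of the overall median it was 0.68 with adjusted p = 0.725 (Wald test on the deposited standard errors). The neighbouring chr7:80613865-80616313 stood at 0.61 ± 0.29 (standard error) in the authors' deposited table, with adjusted p = 0.234. A further region, chr7:80636792-80638370, ends before the next RefSeq starts and stood at 0.65 ± 0.36 (standard error), with adjusted p = 0.312 in the authors' deposited table. Across the 8 regions inside the gene the median log2 fold change was 0.85 in the authors' deposited table, against 0.28 over all distinct regions, and unadjusted p-values were under 0.05 for 4, against 8.99% of all distinct regions. The untested regions among these 4 begin at chr7:80633982 and chr7:80658522, and stood at 0.84 ± 0.41 and 1.07 ± 0.48 (standard error) in the authors' deposited table.

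Before the gene, the median of the 14 regions was 0.12 in the authors' deposited table, against 0.28 over all distinct regions, and unadjusted p-values were under 0.05 for 2, against 8.99% of all distinct regions. The difference between both sets was not tested, because neighbouring regions are not replicates. The widest and strongest of all CD36 regions lies here, within GNAT3, at chr7:80473947-80483076. With a mean level of 115.0 in the authors' deposited table, it had a log2 fold change of 0.29 ± 0.22 (standard error) and adjusted p = 0.427. Beside it, chr7:80465646-80471688 had a level of 90.1 and a log2 fold change of 0.43 ± 0.24 (standard error) in the authors' deposited table, with adjusted p = 0.320. The highest fold change among tested regions on this side was at chr7:80498016-80501283, also over GNAT3, with 0.90 ± 0.29 (standard error) and adjusted p = 0.0721 in the authors' deposited table. A region in the long noncoding RNA gene LOC124901685, chr7:80541320-80543571, stood at 0.22 ± 0.30 (standard error) with adjusted p = 0.646 in the authors' deposited table. The extremes of CD36 were both untested: in the authors' deposited table the lowest log2 fold change was -1.31 and the highest 1.09.

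**Figure D3:**
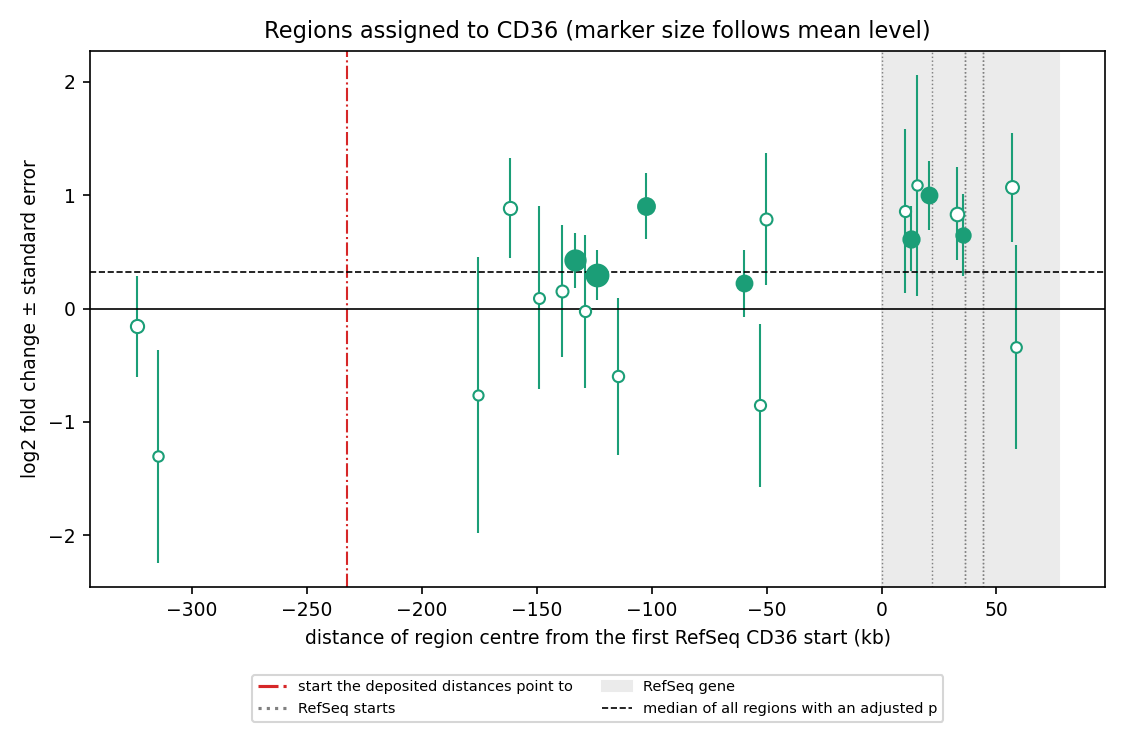
Deposited log2 fold change with its standard error (vertical axis) of the 22 regions assigned to CD36, by the distance of the region's centre from the first RefSeq start in kb; grey shading is the RefSeq gene, dotted lines are RefSeq starts, the red line is the start that the deposited distances point to, open symbols have no adjusted p-value, and marker size follows mean level. The 3 filled points inside the gene stand at 0.61, 1.00 and 0.65, above the dashed median of 0.32.

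The SLC27A genes had 11 regions, all with positive fold changes, of which 7 lay above the overall median of 0.32 and 4 turn negative when it is subtracted, and none was called. Their log2 fold changes ran from 0.09 to 0.91 in the authors' deposited table, with a median of 0.38, against 0.28 over all distinct regions, of which 73.7% were positive. SLC27A1 encodes a transport protein known from muscle and fat, and its promoter holds the 5 GC boxes shown above. The region over its start, chr19:17468921-17472158, had a mean level of 121.0, or 37.4 per kb, and a log2 fold change of 0.19 ± 0.25 (standard error) in the authors' deposited table, with adjusted p = 0.632. That fold change was at percentile 16.9 of all tested start regions in the authors' deposited table, so it lay below most of them. The next region inside the gene, chr19:17472670-17480219, was stronger in total, with a level of 233.7, and its log2 fold change was 0.24 ± 0.20 (standard error) with adjusted p = 0.459 in the authors' deposited table. A region near the gene's end, chr19:17504223-17514395, is the widest of all 45 at 10172 bases, with a level of 409.2 or 40.2 per kb, and stood at 0.69 ± 0.22 (standard error) with adjusted p = 0.0780 in the authors' deposited table. The same region covers the start of PGLS, an enzyme gene of the pentose phosphate pathway, to which the table also assigns it at distance 0. A narrow region 27686 bases from the start, within the gene, stood at 0.34 ± 0.39 (standard error) in the authors' deposited table, with adjusted p = 0.591. Both untested SLC27A1 regions lie before the start, at 4093 and 2867 bases, and stood at 0.91 ± 0.58 and 0.09 ± 0.69 (standard error) in the authors' deposited table.

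SLC27A4 encodes a transport protein known from intestine and skin, and it had the highest fold change of the 4 regions at distance 0 in the table. At chr9:128339588-128341898 the mean level was 54.4, or 23.6 per kb, and the log2 fold change was 0.75 ± 0.30 (standard error) in the authors' deposited table, a ratio of 1.68. Its adjusted p of 0.176 in the authors' deposited table was not under the threshold, with unadjusted p = 0.0143. The fold change was at percentile 94.8 of the tested start regions in the authors' deposited table. The region also contains the tRNA gene TRR-TCT3-1, whose signal cannot be told apart from that of SLC27A4. The second SLC27A4 region, chr9:128360624-128362845, covers the gene's end and stood at 0.47 ± 0.34 (standard error) with adjusted p = 0.415 in the authors' deposited table.

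SLC27A3 encodes a family member that is known mainly for its acyl-CoA synthetase activity. None of its 3 regions is at distance 0, but chr1:153775042-153776504 covers the RefSeq start at chr1:153775407, since the table's start lies 1054 bases before it. In the authors' deposited table this region had a mean level of 38.4 and a log2 fold change of 0.27 ± 0.33 (standard error), with adjusted p = 0.614. The region 8504 bases from the table's start was the densest of all 45, at 42.2 per kb, and stood at 0.39 ± 0.26 (standard error) with adjusted p = 0.376 in the authors' deposited table. It lies beyond the end of the RefSeq gene and overlaps no RefSeq gene. The last, 17292 bases away and also beyond the gene, overlaps the long noncoding RNA gene LOC124904426. It stood at 0.38 ± 0.42 (standard error) with adjusted p = 0.572 in the authors' deposited table. The 3 values differ by less than any of their standard errors.

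FABP7, the brain-type binding protein of neural progenitors and glia that is also known from melanoma, had a single region and the lowest fold change of the 4 regions at distance 0. This region, chr6:122778412-122779909, covers the RefSeq start at chr6:122779716. Its mean level was 20.4, or 13.6 per kb, close to the smallest level of a tested region, and its log2 fold change was -0.08 ± 0.40 (standard error, 95% interval from -0.86 to 0.70) in the authors' deposited table, with adjusted p = 0.900. Among tested start regions, its fold change was at percentile 0.730 in the authors' deposited table. Of all regions at distance 0, 97.7% were positive in the authors' deposited table, so a value below 0 was uncommon, although this interval includes the median of 0.36 of those regions.

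FABP5, the epidermal-type binding protein found in skin and in many tumours, had 9 regions on chromosome 8, and none was called. The region over its start, chr8:81280232-81283082, had a mean level of 73.6, or 25.8 per kb, and a log2 fold change of 0.53 ± 0.27 (standard error) in the authors' deposited table. Unadjusted p was 0.0461 and adjusted p 0.263 in the authors' deposited table. The same region overlaps the long noncoding RNA gene LNMICC, and the table gives no value for either gene alone. Away from the start, 5 of 8 regions were positive and 3 negative in the authors' deposited table, against 70.5% positive over all regions away from starts. Their median log2 fold change was 0.47, against 0.25 over all such regions. Only 2 of these 8 were tested: the region 44933 bases away stood at 0.63 ± 0.40 (standard error) and the region 9511 bases away at -0.15 ± 0.39 in the authors' deposited table, with adjusted p-values of 0.358 and 0.818. The other 6 ran from -1.10 to 1.64 in the authors' deposited table, at levels too low to be tested.

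The 4 regions at distance 0 in the table were ordered SLC27A4 at 0.75, FABP5 at 0.53, SLC27A1 at 0.19 and FABP7 at -0.08 on the log2 scale in the authors' deposited table. The regions over RefSeq starts of CD36 and SLC27A3, at 1.00 and 0.27, are not at distance 0 and stand outside this order. The median of the 4 was 0.36, the same to 2 decimals as that of all 10642 regions at distance 0. Neighbours in this order differed by 0.21, 0.34 and 0.28, each less than the standard error of the difference (0.41, 0.36 and 0.47, taking regions as independent). Even SLC27A4 and FABP7 differed by 0.83 with a standard error of 0.50. By level per kb the order was SLC27A1 at 37.4, FABP5 at 25.8, SLC27A4 at 23.6 and FABP7 at 13.6 in the authors' deposited table, against a median of 25.3 over all regions at distance 0, so the order by level was not the order by fold change. Elsewhere the 41 regions had a median log2 fold change of 0.39 in the authors' deposited table, against 0.25 over all regions away from starts. Among tested regions these medians were 0.43 and 0.31. The 41 were wider, with a median width of 1023 bases against 732, and had a lower median level per kb, 13.6 against 14.7. They also include the SLC27A1 region over the PGLS start, whereas the comparison set leaves out regions over the start of any gene. The plot of level against fold change shows the 21 tested regions within the range of all others, which reaches a log2 fold change of 2.12 in the authors' deposited table.

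**Figure D4:**
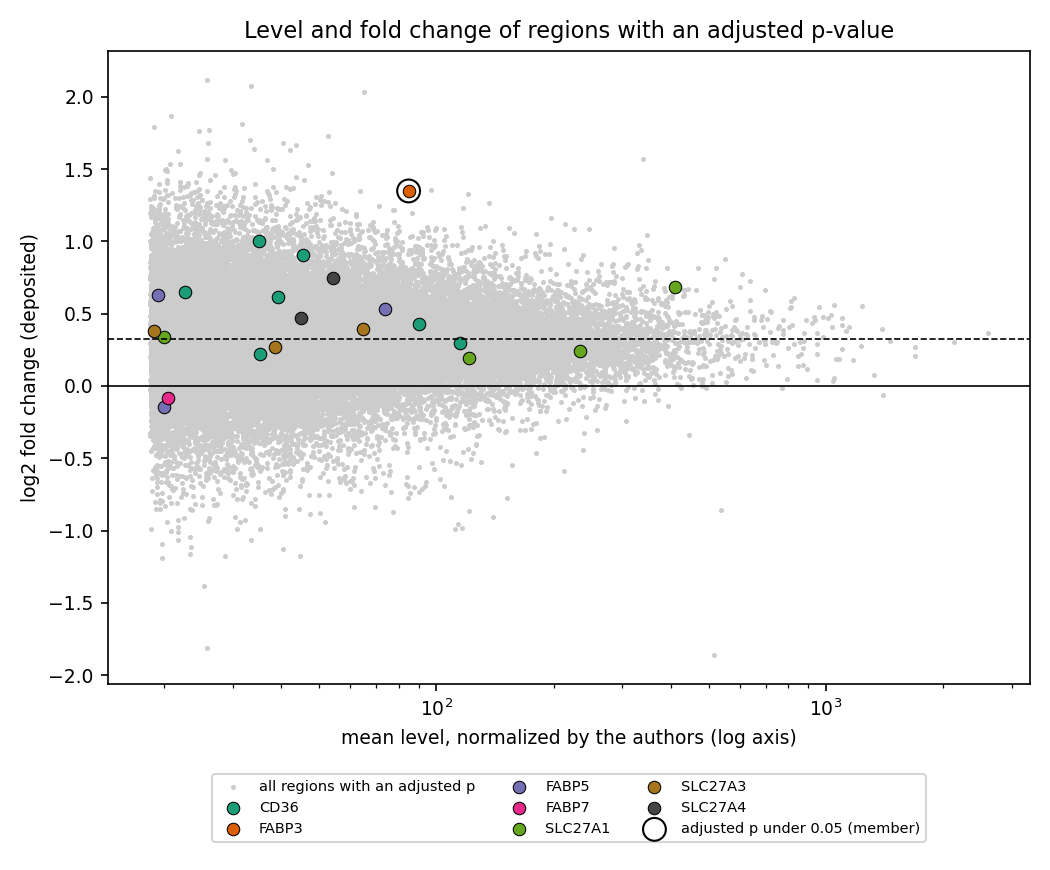
Deposited mean level (log axis) against deposited log2 fold change for all tested regions (grey) and for the 21 of the 7 genes (coloured by gene); the dashed line is the median of 0.32. The ringed FABP3 region at a level of 84.8 and a log2 fold change of 1.35 is the only one of the 21 with an adjusted p-value under 0.05.

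Other genes of fatty acid uptake, binding and delivery were read from a list of 29, of which 26 had regions and FABP4, FABP9 and FFAR3 had none. Of their 140 regions, 67 were tested and 1 was called in the authors' deposited table, against 1.67% of all tested regions. That region, 49317 bases from the start of VLDLR, a receptor for triglyceride-rich lipoproteins, had a log2 fold change of 1.23 ± 0.35 (standard error) and adjusted p = 0.0380 in the authors' deposited table. After subtraction of the overall median its adjusted p-value was 0.526 (Wald test on the deposited standard errors). Unadjusted p-values were under 0.05 for 12 of the 140 regions in the authors' deposited table, all positive and in 8 genes, against 8.99% of all distinct regions (8.68% for positive ones), so the count is near the background. Regions covered the start of 12 listed genes. Their log2 fold changes were all positive in the authors' deposited table, against 97.7% of all regions at distance 0. Those of SCARB1, a lipoprotein receptor, at 0.26 and of the caveolin genes CAV1 and CAV2 lay below the overall median. The highest was 0.95 at SLC27A6, whose region was untested. VLDLR at 0.84 ± 0.28 and LPL, the lipase that frees fatty acids from lipoproteins, at 0.87 ± 0.31 (standard error) had adjusted p-values of 0.0954 and 0.117 at their starts in the authors' deposited table. Among the binding proteins of the list, DBI, which carries acyl-CoA, stood at 0.51 ± 0.26 (standard error) with adjusted p = 0.268 in the authors' deposited table. The median over the 140 regions was 0.30 in the authors' deposited table, against 0.39 for the 7 genes and 0.28 for all distinct regions.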

How the data were processed

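H3K27ac was measured in 2 vehicle and 2 octanoate libraries of A375 cells, at 1 mM octanoate for 48 h. The submitters' processing notes name hg38, Trim Galore, cutadapt, FastQC, Bowtie2, Picard, MACS2, featureCounts, DESeq2 and bedtools 2.29.1, with no role, order or setting. Per the file headers, the deposited table holds the authors' mean normalised signal (baseMean), log2 fold change with its standard error, Wald statistic (a score), p-value and adjusted p-value, and how many bases lie between region and assigned gene (distance). Negative distances mark regions at higher coordinates than the gene's start. The deposited statistic equalled the fold change over its standard error, and the adjusted p-value equalled a Benjamini-Hochberg adjustment over 36436 distinct regions. The other 54671 regions are listed with an adjusted value of 1 and were treated as having none. Reads per library and the fold change's numerator are not given in the sources used here. The p-values rest on the deposited standard errors, which come from 2 libraries a group. Separate cultures were not stated, so the spread between these libraries may be technical.

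Regions were matched by gene symbol and computed with Python 3.11.15, pandas 2.3.3 and SciPy 1.17.1. Only the step of centring on the median, with its adjustment, was tested on simulated data. Intervals of 95% are the fold change with its standard error under a normal distribution. The 7 genes and the lists were chosen with earlier results of these data known. For each gene the rule for naming allowed regions over a start and, elsewhere, the region with the highest level, the nearest and the farthest. It also allowed the extremes of fold change among tested regions, and regions with an unadjusted p-value under 0.05. Not every such region is named, and regions outside this rule were chosen after their values were seen. Gene positions and promoter windows are from RefSeq GRCh38.p14. Alternatives were another adjustment set, a stricter threshold, unadjusted p-values, centring on the median, a level minimum of 10 and leaving out each gene.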

Additional observations from a re-analysis of the deposited data

How the results depend on the processing

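The count of 1 called region did not change with a threshold of 0.01, with an adjustment over all 91107 distinct regions, where the FABP3 region had an adjusted p-value of 0.000282 (Benjamini-Hochberg on the authors' p-values), or after centring on the median. With unadjusted p-values under 0.05 it was 10. The median log2 fold change at starts, 0.36, was 0.039 after centring, 0.27 when regions within 1000 bases of a start were counted as starts, and from 0.19 to 0.53 when each gene was left out in turn. Elsewhere the median of 0.39 was 0.54 with a level of at least 10, 0.071 after centring, and from 0.38 to 0.45 when each gene was left out. Of 18 single regions followed, 5 changed sign after centring, which subtracts 0.32 from each: SLC27A1 at its start to -0.13 and 2182 bases away to -0.080, SLC27A3 689 bases away to -0.054, and CD36 104373 bases away to -0.030 and 171746 bases away to -0.10. None of the 18 changed sign or side of the threshold under the other adjustment. No paired analysis was possible because the table gives no value per library, and for the same reason leaving out each library was not run. The missing counts per library also limit what can be said about depth.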
